A study of Homo sapiens with 18 samples.

Results

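The genes described here are LRRC7, PLPPR4, KCNN3, SUSD4, LMO3 and MIAT, 6 genes with known roles in nerve cells or neural tumours, followed through 18 libraries of KNS-42 cells. KNS-42 is an established human cell line derived from a high-grade glioma. The 6 were picked because each was at least 2-fold lower with a guide RNA against DDX3X in parental cells, so their levels in that comparison are given as a description, without a test. They are 6 of 58050 gene identifiers in the table and 6 of the 15228 genes that passed the filter on low values; in parental cells 942 tested genes, 6.19%, were lower by at least 1 on the log2 scale.

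All cells expressed the Cas9 nuclease and grew in medium with puromycin, and were lysed for RNA 7 days after lentiviral delivery of a guide. The DDX3Xoe line overexpresses a codon-optimised DDX3X, the DDX3Yoe line overexpresses a codon-optimised DDX3Y, and the parental line carries neither. Each line received guide 395, directed at endogenous DDX3X, or the negative control guide AAVS1, named after a safe-harbour locus, with 3 libraries for each of the 6 combinations. All groups come from 1 cell line; whether the overexpressing lines are clones or pools, and whether the replicates are separate cultures, was not given in the sources used here, so p-values reflect only how much these libraries vary, which may be technical. Libraries were made with a 3′ mRNA sequencing kit, and the deposited values are read counts per gene divided by 1 scaling factor per library, called normalised reads below; values of 3 libraries are always listed in the order of replicates 1, 2 and 3.

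DDX3X and its Y-linked relative DDX3Y encode DEAD-box RNA helicases that act in the initiation of translation. The products of the 6 genes work at different levels of a nerve cell. LRRC7 (densin-180) is a scaffold of the postsynaptic density that binds CaM kinase II, and PLPPR4 (plasticity-related gene 1) is a membrane protein related to the lipid phosphate phosphatases that tunes glutamate synapses in mice. KCNN3 forms SK3, a potassium channel opened by intracellular calcium, and SUSD4 is a membrane protein with sushi domains that restrains complement. LMO3 is a LIM-only transcriptional co-regulator known as an oncogene of neuroblastoma, and MIAT is a long non-coding RNA that stays in the nucleus, where it binds splicing factors.

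Levels of DDX3X itself show how far the guide labels hold. DDX3X measured 1416, 716 and 578 normalised reads in the libraries labelled DDX3Xoe with guide 395, against 668, 1504 and 1162 in those labelled AAVS1. In DDX3Yoe cells it measured 878, 739 and 653 with guide 395, against 1379, 1557 and 1439 with AAVS1. In parental cells it measured 861, 844 and 953 with guide 395, against 1780, 1923 and 1729 with AAVS1. The library labelled DDX3Xoe 395 replicate 1 was thus higher than the one labelled DDX3Xoe AAVS1 replicate 1, against their labels, so fits, ratios and correlations that use DDX3Xoe cells are given below both with and without this pair. In the other two lines every 395 library was below every AAVS1 library for DDX3X, as for 3.69% of tested genes in DDX3Yoe cells and 9.86% in parental cells. The log2 fold change of guide 395 over AAVS1 was -0.33 in DDX3Xoe cells (limma adjusted p = 1, and -1.04 with adjusted p = 1 without the pair), -0.95 in DDX3Yoe cells (limma adjusted p = 1) and -1.03 in parental cells (limma adjusted p = 0.0800, 0.0123 with the pair left out of the fit, and 0.0274 by DESeq2). No read was assigned to DDX3Y in any library, DDX3Yoe included, so the transgenes cannot be followed in this table.

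Recovered depths ran from 5667609 to 13201602 reads per library. Among markers of other cell types, the endothelial list summed to between 5.72 and 78.8 normalised reads per library and the macrophage and microglia list to between 23.2 and 185. The listed markers at 0 in all 18 libraries were OLIG1, OLIG2, SOX10, MAG and MOG (oligodendrocyte lineage), S100B (astrocyte), COL3A1 (fibroblast), P2RY12 (microglia) and CLDN5 (endothelium). Other genes of these lists were detected, and the oligodendrocyte lineage list summed to between 353 and 3901 normalised reads per library. The astrocyte list summed to between 3744 and 12703, and the fibroblast and mesenchymal list to between 1496 and 5640, so a marker at 0 does not speak for its list. The glial and progenitor genes GFAP (2399 ± 547 in parental 395 libraries, 4482 ± 3240 in parental AAVS1 libraries; SD, n = 3) and SOX2 (12602 ± 3475 and 19173 ± 5101 in the same order) were well detected.

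Where the 6 genes lie, and what stands before their starts, is shown first as a description. Each gene was picked for its own fall in parental cells, not for moving with the others. On GRCh38 with the GENCODE 29 annotation, LRRC7 (ENSG00000033122, + strand) spans chr1:69568398-70151945, PLPPR4 (ENSG00000117600, + strand) chr1:99263953-99309590, KCNN3 (ENSG00000143603, - strand) chr1:154697455-154870280 and SUSD4 (ENSG00000143502, - strand) chr1:223220819-223364202. LMO3 (ENSG00000048540, - strand) spans chr12:16548373-16610594, and MIAT (ENSG00000225783, annotated as a lincRNA, + strand) chr22:26646428-26676475. So 4 of the 6 are on chromosome 1, far apart from each other. The share of all tested genes on chromosome 1 was not computed, so nothing is read from this count. RefSeq (GRCh38.p14) gave 14 promoter windows for the 6 genes, each of 300 bases, 250 before and 50 after a transcription start: 5 for LMO3, 3 each for LRRC7 and KCNN3, and 1 each for the others. The letters CAGCTG, an E-box core read by basic helix-loop-helix factors and the same on both strands, were in 8 of the 14 windows (57.1%) and in 5 of the 6 genes, against 17.9% of 35116 RefSeq windows and, counting any window, 22.1% of 10453 tested genes. The stretches below carry that match in capitals, read 5′ to 3′ on the strand of the gene, and SUSD4, which has none, is given for contrast:
LRRC7: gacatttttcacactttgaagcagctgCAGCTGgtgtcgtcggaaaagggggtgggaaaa
PLPPR4: ggcagctcgcctCAGCTG
KCNN3: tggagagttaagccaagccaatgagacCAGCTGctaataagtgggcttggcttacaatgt
LMO3: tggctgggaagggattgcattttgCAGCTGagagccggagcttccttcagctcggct
MIAT: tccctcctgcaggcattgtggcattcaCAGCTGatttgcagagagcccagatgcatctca
SUSD4: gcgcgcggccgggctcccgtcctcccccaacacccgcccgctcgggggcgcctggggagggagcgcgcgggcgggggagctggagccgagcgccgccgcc

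These stretches lie at chr1:69567799-69567858 (LRRC7, match 96 to 91 bases before a start), chr1:99264524-99264541 (PLPPR4, match beginning 45 bases after a start), chr1:154870311-154870370 (KCNN3, 62 to 57 before), chr12:16606356-16606412 (LMO3, 226 to 221 before, in 1 of its 5 windows), chr22:26646311-26646370 (MIAT, 91 to 86 before) and chr1:223364177-223364276 (SUSD4) of GRCh38.p14. In LRRC7 a second copy stands directly before the capitals. The base composition of the windows differed widely. The SUSD4 window was 81.7% G and C with 55 CpG steps, whereas the 5 LMO3 windows reached at most 52.0% G and C.

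Other letters searched on both strands were closer to their share of all windows when counted by window. Counted by gene, CAGATG was in 3 of the 6 genes, against 13.5% of tested genes. By the same count GGGCGG was in 5 (against 76.6%), CCAAT in 3 (43.5%), TGACG in 2 (40.5%) and GGACAGC in 1 (8.81%). A gene with more windows has more chances of a match, and some LMO3 windows overlap, so counts by gene and by window are not alike. GGGCGG, the GC box, was in 6 of 14 windows (42.9%, against 45.0% of all windows), CCAAT in 6 (42.9%, against 34.6%), CAGATG in 3 (21.4%, against 14.7%) and TGACG in 2 (14.3%, against 24.6%). TATAAA and CACGTG were in none of the 14, against 11.5% and 7.26% of all windows. GGACAGC, the letters of one end of the element bound by REST, a repressor of neuronal genes, was in 1 window (7.14%, against 6.03%), beginning 230 bases before a KCNN3 start at chr1:154870485-154870531 on the - strand:
KCNN3: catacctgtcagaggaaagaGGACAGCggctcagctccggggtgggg

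A match in these windows is a description of the letters and was not measured as a bound site. The 8 motifs were searched in the same windows, and none of the files measures binding.

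Of the 2 genes of the postsynaptic side, LRRC7 was the one with the fewest reads. LRRC7 measured 24.0, 38.6 and 10.5 normalised reads in the libraries labelled DDX3Xoe with guide 395, against 15.8, 6.39 and 13.2 in those labelled AAVS1. In DDX3Yoe cells LRRC7 measured 24.2, 8.69 and 9.82 with guide 395, against 23.0, 6.45 and 24.0 with AAVS1. In parental cells LRRC7 measured 0, 2.95 and 1.04 with guide 395, against 12.8, 16.1 and 22.3 with AAVS1. LRRC7 reached the filter value of 10 in 11 of the 18 libraries, none of them parental 395. The parental 395 libraries were near 0: they held 4 reads of LRRC7 in all, against 52 in the parental AAVS1 libraries (a ratio of 0.0789 at equal scaling). Its log2 difference in parental cells was -3.14, and with so few reads this value moves with the pseudocount, to -4.57 with 0.1 and to -1.80 with 5.

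PLPPR4 had more reads and a wide spread in DDX3Xoe cells. PLPPR4 measured 219, 296 and 443 normalised reads in the libraries labelled DDX3Xoe with guide 395, against 99.5, 587 and 359 in those labelled AAVS1. In DDX3Yoe cells PLPPR4 measured 252, 303 and 270.0 with guide 395, against 292, 329 and 311 with AAVS1. In parental cells PLPPR4 measured 40.4, 93.5 and 56.3 with guide 395, against 152, 325 and 376 with AAVS1. The parental 395 libraries averaged 0.223 times the AAVS1 level, and all 3 lay below every other PLPPR4 value in the series. The library labelled DDX3Xoe AAVS1 replicate 1, one of the pair whose DDX3X level goes against its label, was the lowest of the other 15 libraries.

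The channel gene KCNN3 was lowest in replicate 3 in 5 of the 6 groups. KCNN3 measured 123, 131 and 70.2 normalised reads in the libraries labelled DDX3Xoe with guide 395, against 114, 252 and 121 in those labelled AAVS1. In DDX3Yoe cells KCNN3 measured 184, 127 and 41.4 with guide 395, against 138, 196 and 81.2 with AAVS1. In parental cells KCNN3 measured 44.8, 38.4 and 36.5 with guide 395, against 188, 251 and 113 with AAVS1. The parental 395 libraries were tightly grouped at 0.217 times the AAVS1 mean, but 1 DDX3Yoe 395 library, replicate 3, fell within their range.

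The complement regulator gene SUSD4 came close to overlapping between parental 395 libraries and 1 transgene library. SUSD4 measured 172, 70.0 and 128 normalised reads in the libraries labelled DDX3Xoe with guide 395, against 147, 177 and 146 in those labelled AAVS1. In DDX3Yoe cells SUSD4 measured 153, 84.7 and 140.3 with guide 395, against 189.7, 105 and 174 with AAVS1. In parental cells SUSD4 measured 30.8, 38.4 and 67.8 with guide 395, against 148, 260.5 and 193 with AAVS1. The highest parental 395 library, 67.8, was just under the lowest transgene library, 70.0, the one labelled DDX3Xoe 395 replicate 2.

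LMO3, the transcriptional co-regulator gene, had the smallest difference of the 6 and sat just inside the 2-fold limit. LMO3 measured 873, 919 and 604 normalised reads in the libraries labelled DDX3Xoe with guide 395, against 683, 947 and 583 in those labelled AAVS1. In DDX3Yoe cells LMO3 measured 681, 885 and 572 with guide 395, against 805, 894 and 628 with AAVS1. In parental cells LMO3 measured 259, 319.7 and 315 with guide 395, against 722, 685 and 474 with AAVS1. Replicate 3 was lowest in each transgene group and in the parental AAVS1 group, and the parental 395 libraries stood below all of these. The parental log2 difference was -1.05, and it passed under the 2-fold limit when parental 395 replicate 1 (-0.96), parental AAVS1 replicate 1 (-0.94) or parental AAVS1 replicate 2 (-0.98) was left out, and with library quality weights (-0.87). Beside it, the growth cone gene GAP43 stood at -1.0, on the limit, and the microtubule gene MAP2 at -0.78, outside it, and neither was picked. The limit alone did not decide the choice. NES (-1.71), SLC1A3 (-1.79) and CTNND2 (-1.49), from the lists described below, fell further than LMO3 and were not picked either.

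MIAT, the non-coding member, gave the most reads. MIAT measured 2034, 2344 and 1346 normalised reads in the libraries labelled DDX3Xoe with guide 395, against 2174, 1783 and 1685 in those labelled AAVS1. In DDX3Yoe cells MIAT measured 1279, 1621 and 1835 with guide 395, against 1213, 3504 and 1865 with AAVS1. In parental cells MIAT measured 347, 467 and 175 with guide 395, against 2154, 1398 and 972 with AAVS1. The parental 395 libraries averaged 0.219 times the AAVS1 level, and their highest value, 467, was below the lowest value of the other 15 libraries, 972.

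**Figure D1:**
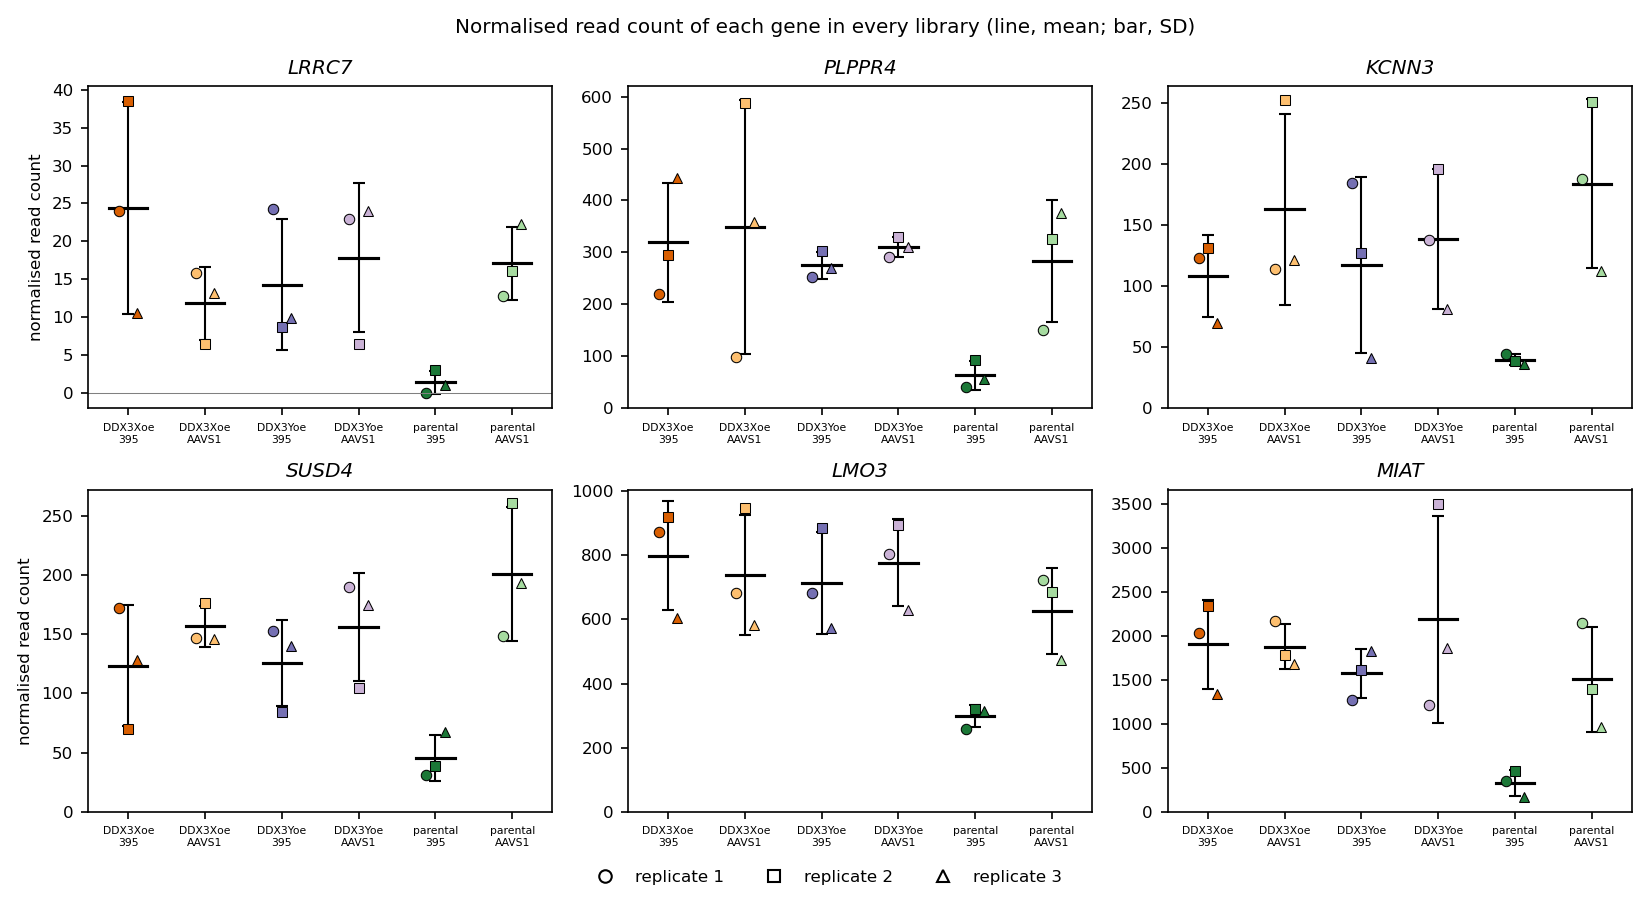
Normalised read counts of the 6 genes (vertical axes, each from 0 and on its own scale) in the 3 libraries of each group (horizontal axis), with the mean as a line, the SD as a bar and marker shapes for replicate numbers. The parental 395 libraries are the lowest group in each panel, with 1 DDX3Yoe 395 library among them for KCNN3, and the other 5 groups overlap.

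Across the 6 groups, parental cells with guide 395 had the lowest mean of every gene. For LRRC7, PLPPR4, SUSD4, LMO3 and MIAT their range overlapped that of no other group, and for KCNN3 it overlapped that of DDX3Yoe cells with guide 395. The share of all tested genes with a parental 395 range apart from every other group was not computed. The genes were picked for low parental 395 values, so this too is a description. The other 5 groups overlapped each other for all 6 genes, so their order within a gene is not larger than the spread between replicates. Without the DDX3Xoe replicate 1 pair, 4 of the 60 comparisons of a gene between 2 of these groups had no overlap: PLPPR4 in DDX3Xoe AAVS1 against each DDX3Yoe group, and SUSD4 in DDX3Xoe 395 against DDX3Xoe AAVS1 and parental AAVS1. With so few libraries this is common: in DDX3Xoe cells 10.4% of tested genes had every 395 library below every AAVS1 library. The share over all genes was not computed for the other pairs of groups, so the count is a description. Every parental 395 library was below every parental AAVS1 library for all 6 genes; this holds for 1501 of 15228 tested genes (9.86%), and the genes were picked on this comparison. Between same-numbered parental libraries, log2 differences ran from -3.78 to -2.12 for LRRC7, -2.72 to -1.79 for PLPPR4 and -2.68 to -1.60 for KCNN3. They ran from -2.73 to -1.50 for SUSD4, -2.63 to -1.58 for MIAT and -1.47 to -0.59 for LMO3. In a bulk sample, fewer cells that express a gene and less of its RNA per cell cannot be told apart.

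The question the transgene lines address is what guide 395 does when DDX3X or DDX3Y is supplied from a copy that the guide is not directed at. None of the 6 genes passed the test in either line. In DDX3Xoe cells the log2 fold changes of guide 395 over AAVS1, with 95% intervals, were 0.90 (-0.55 to 2.35) for LRRC7, 0.15 (-0.90 to 1.20) for PLPPR4 and -0.54 (-1.58 to 0.50) for KCNN3. In the same cells they were -0.43 (-1.24 to 0.38) for SUSD4, 0.12 (-0.42 to 0.66) for LMO3 and -0.01 (-0.83 to 0.82) for MIAT. All 6 limma adjusted p-values were 1, and 0 of 15228 genes were called in this line (0.0%), with 315 at an unadjusted p under 0.05 and 0 called by edgeR or DESeq2. Without the 2 replicate 1 libraries whose DDX3X levels go against their labels, the values were 1.06 for LRRC7, -0.34 for PLPPR4, -0.86 for KCNN3, -0.76 for SUSD4, 0.00 for LMO3 and 0.04 for MIAT, all again with a limma adjusted p of 1.

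In DDX3Yoe cells, whose DDX3X levels follow the guide labels, the values were -0.25 (-1.70 to 1.19) for LRRC7, -0.18 (-1.23 to 0.87) for PLPPR4 and -0.39 (-1.43 to 0.65) for KCNN3. They were -0.31 (-1.11 to 0.50) for SUSD4, -0.13 (-0.67 to 0.41) for LMO3 and -0.35 (-1.18 to 0.47) for MIAT. All 6 estimates were below 0, none past the test (limma adjusted p = 1 for each), and they stood between the 10.7th and 31.4th percentile of the estimates of all tested genes. In this line too, 0 of 15228 genes were called (0.0%), with 153 at an unadjusted p under 0.05 and 0 called by edgeR or DESeq2. For no member was every 395 library below every AAVS1 library, in DDX3Xoe cells (2.04% of tested genes) or in DDX3Yoe cells (3.69%). Without the DDX3Xoe replicate 1 pair this held for SUSD4 in DDX3Xoe cells, with 2 libraries a guide, as for 10.4% of tested genes.

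Averaged over both transgene lines, which narrows the intervals, the effect of guide 395 was 0.32 (-0.70 to 1.35) for LRRC7, -0.01 (-0.76 to 0.73) for PLPPR4 and -0.46 (-1.20 to 0.27) for KCNN3. It was -0.37 (-0.94 to 0.20) for SUSD4, -0.00 (-0.39 to 0.38) for LMO3 and -0.18 (-0.76 to 0.40) for MIAT. The limma adjusted p rounded to 1.00 for each, with 0 genes called in all (0.0%), 226 at an unadjusted p under 0.05 and 0 called by edgeR or DESeq2. Without the DDX3Xoe replicate 1 pair it was 0.40 for LRRC7, -0.26 (-0.85 to 0.33) for PLPPR4, -0.62 (-1.46 to 0.22) for KCNN3, -0.53 (-1.16 to 0.10) for SUSD4, -0.06 for LMO3 and -0.16 for MIAT, with 0 genes called and 449 at an unadjusted p under 0.05. The lower ends of the intervals with all libraries ran from -1.20 for KCNN3 to -0.39 for LMO3. Without the pair they were -1.46 for KCNN3 and -0.51 for LMO3, so a fall of each gene is not excluded. The parental differences of -2.11 for KCNN3 and -1.05 for LMO3, given beside them, chose the genes and were not tested against these values.

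**Figure D2:**
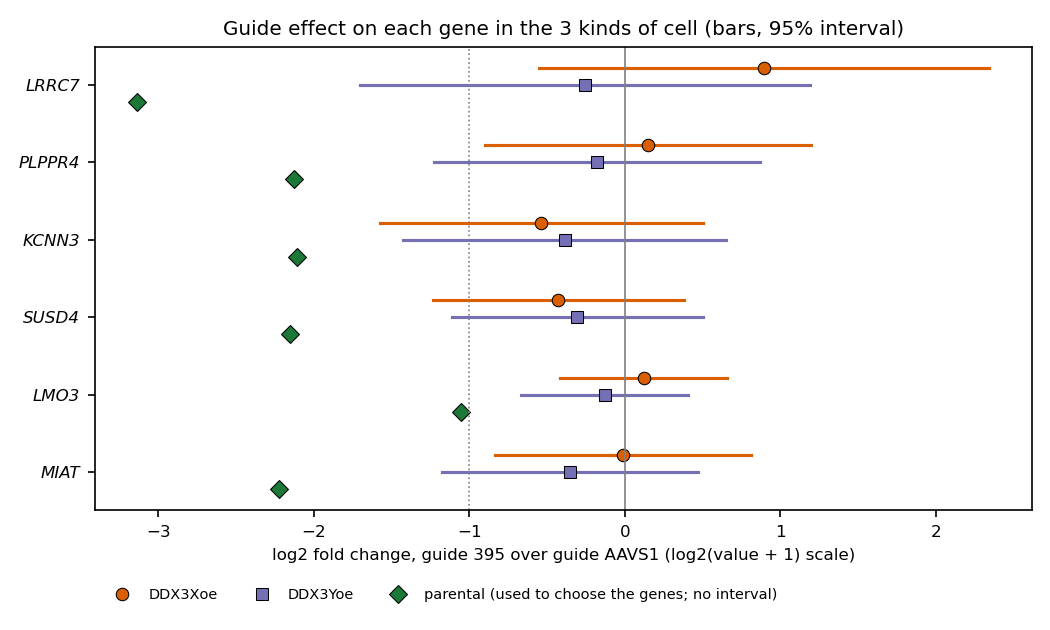
Log2 fold change of guide 395 over AAVS1 (horizontal axis) for each gene (rows) in DDX3Xoe cells (circles), DDX3Yoe cells (squares) and parental cells (diamonds), with 95% intervals from limma for the transgene lines; the dotted line marks a 2-fold fall. All 12 transgene intervals include 0, and the parental points, which chose the genes, run from -3.14 to -1.05.

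Mean levels in the transgene lines were also set against those of parental cells under the same guide. These comparisons share the parental libraries that chose the genes, so they are values without a test. With guide 395, LRRC7 averaged 18.3 times the parental level in DDX3Xoe cells and 10.7 times in DDX3Yoe cells, ratios that rest on 4 parental reads and ran from 12.2 to 46.7 and from 7.13 to 27.3 when 1 parental 395 library was left out, highest without replicate 2. MIAT averaged 5.78 and 4.78 times the parental level in the same order of lines, and PLPPR4 5.04 and 4.34 times. KCNN3 averaged 2.72 and 2.95 times, SUSD4 2.71 and 2.76 times, and LMO3 2.68 and 2.39 times. For KCNN3 the DDX3Yoe range overlapped the parental one. Without the DDX3Xoe replicate 1 pair, the DDX3Xoe ratios with guide 395 were 18.4 for LRRC7, 5.83 for PLPPR4, 5.59 for MIAT, 2.56 for LMO3, 2.53 for KCNN3 and 2.17 for SUSD4. With AAVS1, every transgene group overlapped the parental group for all 6 genes, and the ratios ran from 0.691 for LRRC7 in DDX3Xoe cells to 1.45 for MIAT in DDX3Yoe cells. Without the pair the DDX3Xoe ratios with AAVS1 ran from 0.575 for LRRC7 to 1.66 for PLPPR4, again with overlap for all 6.

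The members were also compared between the DDX3Y and the DDX3X transgene, a comparison the choice of genes did not use. With guide 395, DDX3Yoe minus DDX3Xoe was -0.70 (-2.15 to 0.74) for LRRC7, -0.16 (-1.21 to 0.89) for PLPPR4 and -0.07 (-1.12 to 0.97) for KCNN3. It was 0.08 (-0.73 to 0.88) for SUSD4, -0.16 (-0.70 to 0.38) for LMO3 and -0.25 (-1.07 to 0.57) for MIAT. With AAVS1 the 6 values ran from -0.22 for KCNN3 to 0.45 for LRRC7. The difference between the lines in the guide effect itself ran from -1.15 (-3.20 to 0.90) for LRRC7 to 0.15 (-1.32 to 1.62) for KCNN3. No member passed limma in any of these 3 comparisons (adjusted p rounding to 1.00 for each), and 0 of all tested genes did (0.0% in each), with 350, 136 and 227 genes at an unadjusted p under 0.05 and 0 called by edgeR or DESeq2 in each. Without the DDX3Xoe replicate 1 pair, the values with guide 395 ran from -0.63 for LRRC7 to 0.36 for SUSD4, those with AAVS1 from -0.56 for PLPPR4 to 0.69 for LRRC7, and the difference in the guide effect from -1.31 for LRRC7 to 0.47 for KCNN3. None passed limma (adjusted p rounding to 1.00 for each), and 0 genes were called, with 490, 191 and 300 at an unadjusted p under 0.05.

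How the 6 genes vary with each other depended on which libraries were taken. Over all 18 libraries, the 15 pairs had Pearson r of log2 values between 0.565 and 0.874, with a median of 0.691. Over the 12 transgene libraries, r ran from -0.411 to 0.711, with a median of -0.03, and 6 of the 15 pairs were above 0. KCNN3 and LMO3 had the highest value in the transgene libraries (0.711, against 0.791 over all 18, where LMO3 and MIAT were highest), and it was 0.757 for deviations from the 6 group means; each of these genes was lowest in replicate 3 in 5 of the 6 groups. SUSD4 and MIAT had the lowest, -0.411 over the transgene libraries and -0.632 for deviations. Without the DDX3Xoe replicate 1 pair, r over the other 10 transgene libraries ran from -0.542 (LRRC7 and PLPPR4) to 0.733 (KCNN3 and LMO3), with 7 of 15 pairs above 0. The points of each r share their libraries, depths and scaling factors, and the values over 18 libraries hold the parental 395 group on which the genes were picked.

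**Figure D3:**
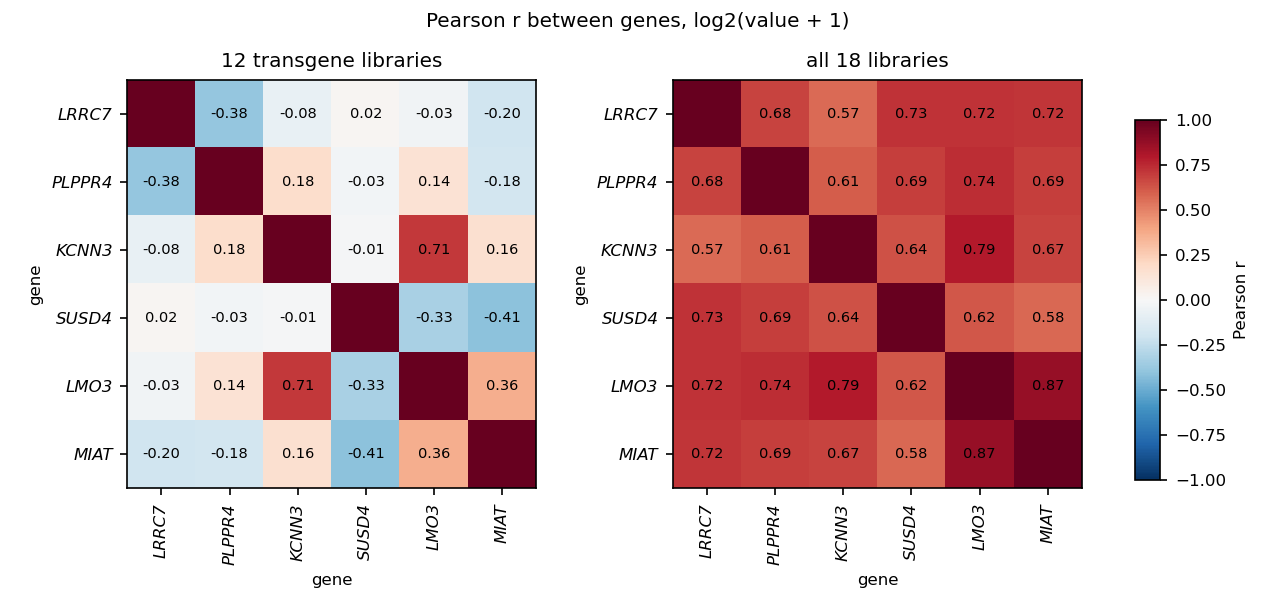
Pearson r between the log2 values of each pair of genes (rows and columns), over the 12 transgene libraries on the left and all 18 libraries on the right, with the value in each square. All 15 pairs are above 0 on the right; on the left 6 of 15 are.

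Each gene was also set beside the 3 genes most like it in pattern, by Pearson r over the 18 libraries among genes at or above the 40th percentile of mean level. For SUSD4 the nearest was NTRK3, the neurotrophin-3 receptor gene (r = 0.947, and 0.841 over the 12 transgene libraries), which averaged 141 ± 14.5 normalised reads in parental 395 libraries and 388 ± 45.4 in parental AAVS1 libraries (SD, n = 3). For MIAT the second nearest was NTRK2, the receptor gene for BDNF (r = 0.924 and 0.730), at 913 ± 101 and 1788 ± 442 in the same order of groups, after the innate immune receptor gene TLR4 (r = 0.932 and 0.704). For LMO3 the nearest was NFIA, a transcription factor of glial development (r = 0.954 and 0.914), at 412 ± 118 and 775 ± 234. PLPPR4 was nearest to TUBGCP2, of the gamma-tubulin complex (r = 0.924 and 0.916), and KCNN3 to TMEM106C (r = 0.951 and 0.918), with the growth cone gene BASP1 also among its 3 (r = 0.929 and 0.851). LRRC7 was nearest to the collagen gene COL1A1 (r = 0.874), a value of 0.592 over the transgene libraries. Over the 10 transgene libraries without the DDX3Xoe replicate 1 pair, r was 0.872 for NTRK3, 0.801 for NTRK2, 0.708 for TLR4, 0.949 for NFIA, 0.835 for TUBGCP2, 0.939 for TMEM106C, 0.855 for BASP1 and 0.725 for COL1A1. The rest of the nearest genes follow, with r over the 18, the 12 and these 10 libraries in that order. For LRRC7 they were FLG (0.854, 0.418 and 0.534) and PHRF1 (0.850, 0.492 and 0.427). For PLPPR4 they were ST13 (0.920, 0.839 and 0.537) and LUC7L (0.916, 0.840 and 0.624), and for KCNN3 NUDT1 (0.936, 0.876 and 0.906). For SUSD4 they were SAMM50 (0.908, 0.811 and 0.803) and ACTG2 (0.903, 0.447 and 0.488). For LMO3 they were AQR (0.945, 0.771 and 0.805) and PALMD (0.938, 0.942 and 0.939), and for MIAT STK11IP (0.922, 0.713 and 0.744). All of these genes were chosen for likeness to genes that are low in the parental 395 libraries, and they are given as a description.

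Relatives and partners of each gene were counted in 6 lists that leave the members themselves out. In parental cells with guide 395 against AAVS1, where limma called 271 of 15228 genes (1.78%; 149 higher, 0.978%, and 122 lower, 0.801%), 1 of the 87 tested genes in the 6 lists was called, and it was higher. None of 22 postsynaptic scaffold and CaM kinase II genes, partners of LRRC7, was called (median log2 fold change 0.16), and none of 11 lipid phosphate phosphatase family and LPA receptor genes, relatives of PLPPR4 (median -0.24). Of 16 potassium channel and calmodulin genes, the list around KCNN3, 1 was called (median -0.21). None of 12 sushi-domain and complement genes around SUSD4 (median 0.23), of 14 other long non-coding RNAs (median -0.05) and of 12 genes of the LMO family and its LIM-domain-binding partners (median 0.51) was called. The median over all tested genes was 0.02. Without parental AAVS1 replicate 3, CTNND2 of the postsynaptic list, KCNQ5 of the channel list and TCF12 of the LMO list were called as well; without any other 1 parental library the calls in these lists were KCNMB3 alone.

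The single call was KCNMB3, which encodes a beta subunit of the large-conductance calcium-activated potassium channel. KCNMB3 measured 280, 244 and 194 normalised reads in parental cells with guide 395, against 29.5, 12.4 and 23.4 with AAVS1. It rose by 3.46 on the log2 scale, with a limma adjusted p of 0.00105 and an SE of 0.47, opposite in direction to KCNN3. In the transgene lines KCNMB3 stayed between 9.66 and 46.3, with log2 values of -0.65 in DDX3Xoe cells and 0.14 in DDX3Yoe cells (limma adjusted p = 1 for both; -0.58 in DDX3Xoe cells without the replicate 1 pair, adjusted p = 1). Its locus on chromosome 3 overlaps PIK3CA on the other strand (552 normalised reads in parental 395 libraries, 448 in parental AAVS1 libraries) and the pseudogene LRRFIP1P1 on the same strand (59.1 and 11.4), and the strand setting of the counting was not given in the sources used here, so reads of overlapping genes cannot be told apart.

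Among the better-detected relatives that did not pass, the values pointed both ways. ERBIN, a scaffold of the same LAP family as LRRC7, averaged 1952 ± 805 normalised reads in parental 395 libraries and 1138 ± 90.5 in parental AAVS1 libraries (SD, n = 3; limma adjusted p = 0.262). DLGAP4, another postsynaptic scaffold gene, averaged 669 ± 212 and 1151 ± 249 in the same order of groups (adjusted p = 0.147). SEZ6, a sushi-domain gene of neurons, averaged 686 ± 139 and 354 ± 82.3 (limma adjusted p = 0.145), and LMO4, a relative of LMO3, 1674 ± 240 and 1069 ± 306 (limma adjusted p = 0.174). PLPP1, a lipid phosphate phosphatase, averaged 330.1 ± 58.9 and 425 ± 25.5 (limma adjusted p = 0.360), and MALAT1, a nuclear non-coding RNA like MIAT, 69851 ± 44525 and 45401 ± 15898 (limma adjusted p = 0.630). With the replicate number as a block shared by all lines, limma called 4 more of the 87 genes: CTNND2 (log2 fold change -1.49, adjusted p = 0.00607), a delta-catenin of neurons, KCNJ6 (-0.84, adjusted p = 0.0251) and KCNQ5 (1.42, adjusted p = 0.0415), both potassium channel genes, and TCF12 (0.95, adjusted p = 0.0321), an E-protein gene. The 5 genes called with the block are 5.75% of the 87, against 4.45% of all tested genes in that fit.

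**Figure D4:**
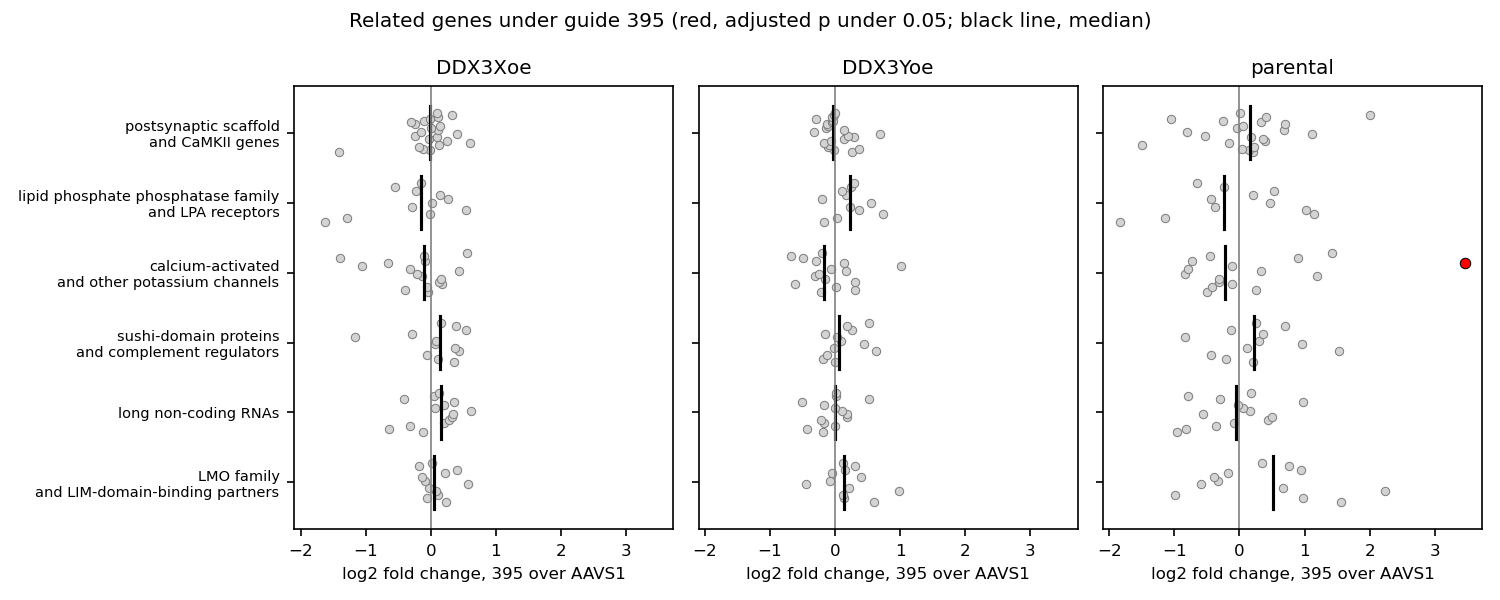
Log2 fold change of guide 395 over AAVS1 (horizontal axes) for the tested genes of the 6 lists of relatives and partners (rows) in DDX3Xoe, DDX3Yoe and parental cells, 1 point a gene, with the median as a black line and genes past limma in red. KCNMB3 at 3.46 in parental cells is the only red point.

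In the transgene lines, no gene of any list was called, with or without the DDX3Xoe replicate 1 pair, against 0.0% of all tested genes. Reads of 3 members come from loci that overlap another detected gene. LRRC7 overlaps LRRC40 on the other strand, which averaged 82.7 normalised reads in parental 395 libraries and 106 in parental AAVS1 libraries. LMO3 overlaps MGST1 on the other strand (222 and 288), and MIAT overlaps MIATNB on its own strand (34.0 and 65.6). Each of these 3 differed less between the guides than the member it overlaps. Below the filter on low values, the pseudogene PIN1P1 on the strand of LRRC7 averaged 4.04 and 1.75 in the same order of groups. Z99774.1, on the strand opposite MIAT, averaged 4.31 and 3.17, so both were higher with guide 395.

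Markers of cell types were read beside the members in parental cells. The 16 neuronal markers summed to between 3037 and 3405 normalised reads in parental 395 libraries, against 4986 to 5444 in parental AAVS1 libraries, and 0 of the 8 tested were called, with 5 below 0, 3 above 0 and a median log2 fold change of -0.22. The 3 tested markers with the highest mean were GAP43, MAP2 and SYT1. GAP43, of the growth cone, averaged 1483 ± 193 and 2962 ± 235 (limma adjusted p = 0.0524, and 0.0340 with the replicate block), and MAP2, a dendritic microtubule marker, 894 ± 105 and 1538 ± 195 (limma adjusted p = 0.0940), in parental 395 and parental AAVS1 libraries in that order. SYT1, a synaptic vesicle marker, averaged 298 ± 49.0 and 401 ± 181 in the same order (log2 fold change -0.35, limma adjusted p = 0.677). The 8 astrocyte markers summed to between 4567 and 5612, against 4348 to 11149, with 0 of 6 tested genes called. All 6 were below 0, with a median log2 fold change of -0.56. In the block fit 1 astrocyte marker, the glutamate transporter gene SLC1A3, passed at -1.79 (limma adjusted p = 0.0361).

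Of 8 tested neural progenitor markers, 1 was called: NES, the intermediate filament gene nestin, fell to 151, 214 and 269 normalised reads in parental 395 libraries, against 599, 804 and 645 in parental AAVS1 libraries (-1.71 on the log2 scale with an SE of 0.26, limma adjusted p = 0.00314). The progenitor sums themselves overlapped, at 33747 to 39697 against 37277 to 69901. Of 8 tested fibroblast and mesenchymal markers, 3 fell: ACTA2 (-2.43, limma adjusted p = 0.000633), COL1A1 (-2.43, limma adjusted p = 0.000924) and TAGLN (-1.62, limma adjusted p = 0.0232). Leaving out 1 parental library at a time, ACTA2 and COL1A1 were called each time, and TAGLN was called only without 395 replicate 3. That list summed to between 1496 and 2367 in parental 395 libraries, against 3891 to 5640 in parental AAVS1 libraries. The macrophage and microglia list summed to between 61.0 and 185, against 33.5 to 104, with 0 of 2 tested genes called. No marker was called in DDX3Xoe or DDX3Yoe cells, where the neuronal sums overlapped between guides in DDX3Xoe cells (3690 to 5110 with guide 395, 4590 to 5918 with AAVS1) and in DDX3Yoe cells (4513 to 6128 with guide 395, 5234 to 5838 with AAVS1). Without the replicate 1 pair, the neuronal sums in DDX3Xoe cells no longer overlapped (3690 and 5110 with guide 395, 5408 and 5918 with AAVS1). The part of these markers in the levels of the 6 genes was not tested.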

How the data were processed

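RNA from 18 libraries of Cas9-expressing KNS-42 cells was sequenced at the 3′ ends of transcripts, per the labels' protocols. The deposited table holds a normalised signal, gene counts the authors scaled by a single factor in each library: dividing a column by its step gave whole reads for 100% of values (tolerance 0.01). Tools listed in the submitters' processing notes are featureCounts 1.5.1, RSEM 1.3.0, STAR 2.5.2b and limma, with the build GRCh38; the annotation release and the strandedness of counting are not given in the sources used here. GENCODE 29 matched 57446 of 58050 identifiers; 29485 were at 0 throughout.

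Values were tested as log2(value + 1) in limma 3.58.1 (R 4.3.3) with an intensity trend, 6 group means and 12 residual degrees of freedom, over the 15228 genes that reached 10 in 3 or more libraries; calls are at a Benjamini-Hochberg adjusted p under 0.05. All 6 members passed this filter. Fold changes on this scale understate those of low genes. edgeR 4.0.16 and DESeq2 1.42.0 on the recovered reads were alternatives. The fit was tested on simulated data, and the outcome is not given here. Members, lists and tests were chosen with earlier results of these data known. Named genes were the members, DDX3X, called list genes, the up to 3 list genes with the highest mean, and the 3 genes most like each member. MAP2 and GAP43 are among these. PIK3CA, LRRFIP1P1, LRRC40, MGST1, MIATNB, PIN1P1, Z99774.1 and the genes called only with the block were named after their values were seen. All replicate pairs differed by more than sampling noise (chi-square over its degrees of freedom 22.0 to 154).

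The replicate numbers, which come from the sample titles, were checked for pairing by correlating the deviations from group means of libraries with the same number. The values were 0.570, 0.201 and 0.280 in parental cells, 0.231, -0.03 and 0.300 in DDX3Xoe cells and 0.075, 0.114 and 0.238 in DDX3Yoe cells. Parental libraries were taken as paired in the same-numbered differences and in the fits with a replicate block. The main fit, which gave the calls unless a block is named, did not pair them. These ranges overlapped and libraries with different numbers were not compared, so the pairing of parental libraries is an assumption.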

Additional observations from a re-analysis of the deposited data

How the results depend on the processing

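The 6 genes gave 36 log2 values in the 6 tested comparisons. Under 822 alternative values of these, 0 passed the threshold; 78 had the other sign, 25 of them in fits that keep every library, and the cause was not tested. For guide 395 over AAVS1 in DDX3Xoe cells, PLPPR4 turned to -0.24 with library quality weights, -0.34 without both replicate 1 libraries, and -0.12 with edgeR and -0.12 with DESeq2. MIAT there turned to 0.00034 with median-centred values, 0.045 with quantile normalisation, 0.098 with weights, 0.035 without both replicate 1 libraries, 0.014 with edgeR and 0.025 with DESeq2. Over both lines together, quantile normalisation gave 0.0097 for PLPPR4 and 0.024 for LMO3, and weights gave 0.16 for LMO3.

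Between the lines, the difference in guide effect (DDX3Yoe minus DDX3Xoe) with weights was 0.13 for PLPPR4, -0.082 for KCNN3 and -0.34 for SUSD4, and without both replicate 1 libraries 0.16 for PLPPR4 and 0.084 for DDX3X. With AAVS1, PLPPR4 turned to -0.11 with weights, -0.56 without both replicate 1 libraries, -0.15 with edgeR and -0.16 with DESeq2, KCNN3 to 0.098 with weights, and SUSD4 to 0.0095 with edgeR and 0.0060 with DESeq2. With guide 395, weights gave 0.012 for PLPPR4, 0.016 for KCNN3 and -0.35 for SUSD4; KCNN3 was 0.044 and DDX3X 0.22 without both replicate 1 libraries, and KCNN3 0.13 with edgeR and 0.12 with DESeq2.

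Leaving out 1 library at a time, the values of guide 395 over AAVS1 ran from -0.58 to 0.69 for PLPPR4, -0.033 to 0.32 for LMO3 and -0.18 to 0.22 for MIAT in DDX3Xoe cells. In DDX3Yoe cells they ran from -0.83 to 0.049 for LRRC7, -0.83 to 0.23 for KCNN3, -0.30 to 0.017 for LMO3 and -0.71 to 0.054 for MIAT, and over both lines from -0.38 to 0.26 for PLPPR4, -0.088 to 0.093 for LMO3 and -0.36 to 0.023 for MIAT. The difference between the lines ran from -0.87 to 0.40 for PLPPR4, -0.29 to 0.77 for KCNN3, -0.24 to 0.41 for SUSD4 and -0.70 to 0.063 for MIAT. With AAVS1, DDX3Yoe minus DDX3Xoe ran from -0.56 to 0.71 for PLPPR4, -0.52 to 0.14 for KCNN3, -0.21 to 0.22 for SUSD4, -0.067 to 0.28 for LMO3 and -0.31 to 0.45 for MIAT. With guide 395 it ran from -0.40 to 0.11 for PLPPR4, -0.52 to 0.55 for KCNN3, -0.28 to 0.36 for SUSD4 and -0.42 to 0.22 for DDX3X.

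Calls in parental cells, 149 higher and 122 lower, moved with the fit. The replicate block gave 336 and 341, the block within each line 384 and 353, DESeq2 438 and 471, and the compared groups alone 66 and 17. Lower calls were 53 with no filter and 184 with quantile normalisation. Without 1 parental library the counts ran from 26 to 199 higher and from 22 to 167 lower, lower than with all libraries by over 1.5 times without any parental library but AAVS1 replicate 3 (parental 395 replicates 1, 2 and 3: 34, 52 and 26 higher, and 34, 39 and 36 lower; parental AAVS1 replicates 1 and 2: 78 and 38 higher, and 61 and 22 lower). With no filter, 1 gene was called higher in DDX3Yoe cells, 3 in DDX3Yoe minus DDX3Xoe with AAVS1 and 1 with guide 395. Ratios and correlations without the DDX3Xoe replicate 1 pair, and LRRC7 ratios without each parental 395 library, were added after seeing the data. The replicate block changed no call on a member in the tested comparisons.

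With 3 libraries a group, the 95% intervals of the members span 1.08 to 2.90 log2 units from end to end within a line, and the number of libraries limits the precision.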
